A study of Mus musculus with 12 samples.

Results

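The comparison described here sets mouse embryonic fibroblasts kept with WM-2474 for 240 h against fibroblasts kept with the solvent DMSO for the same time. It uses 6 of the 12 sequenced samples, 3 per group, chosen by the treatment and time in their labels, and all 26305 genes with a gene identifier. The cells were primary fibroblasts from wild type male C57BL/6 embryos (E13.5), and all groups were grown in DMEM with 10% fetal bovine serum at 3% oxygen and 5% CO2. Treatment was 10 µM of WM-2474, described in the labels as inactive. The control cultures received DMSO alone. The remaining 6 samples were the same 2 treatments after 96 h, and no active compound was among the 12. The submitters call the samples biological replicates, and the sources used here do not say which of them share an embryo or a cell preparation.

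Compounds named in the same series inhibit KAT6A and KAT6B, lysine acetyltransferases that act on histone tails, and an inactive relative is used to separate that activity from other effects of a molecule of similar shape. Fibroblasts from embryos divide for a limited time in culture and then enter senescence, so that a long exposure also covers their ageing in the dish. The genes that led this comparison have known roles outside histone acetylation. Ptma encodes prothymosin alpha, a very acidic nuclear protein that binds histones and is abundant in dividing cells. Tmsb10 encodes thymosin beta 10, a small protein that binds actin monomers. Sorcs2 encodes a sorting receptor of the VPS10 domain family, known from neurons for binding neurotrophin precursors together with the receptor p75.

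Counts assigned to genes were 7313007, 7701112 and 26019167 in DMSO replicates 1, 2 and 3 at 240 h, and 9585953, 13803413 and 9172540 in WM-2474 replicates 1, 2 and 3. DMSO replicates 1 and 2 were thus the shallowest of the 12 libraries and DMSO replicate 3 the deepest. A floor of 3 counts was 0.41, 0.39 and 0.115 CPM (counts scaled to a common library size) in DMSO replicates 1, 2 and 3, for counting error only. All 12 fibroblast markers, such as Col1a1 and Pdgfrb, were expressed, summing to 48720 to 50190 CPM under DMSO and to between 51360 and 53290 CPM under WM-2474.

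DMSO replicates 1 and 2 also stood apart in a few rare transcripts. Xist, the RNA that coats the inactive X chromosome of female cells, had 37 and 33 counts in DMSO replicates 1 and 2 (5.24 and 4.48 CPM) and 7 in DMSO replicate 3 (0.281 CPM). It had 3, 5 and 8 counts in the WM-2474 libraries, although all samples are labelled male. Ighm, the immunoglobulin mu heavy chain of B cells, had 41, 57 and 12 counts in DMSO replicates 1, 2 and 3, and 1, 7 and 15 in the WM-2474 libraries. Dntt, which adds nucleotides during antigen receptor rearrangement, had 20, 38 and 4 counts with DMSO and 1, 5 and 5 with WM-2474. Summed over 26 B-lineage markers the level was 60.7, 56.9 and 36.2 CPM with DMSO, and 39.9, 30.0 and 36.6 CPM with WM-2474. Ebf1 alone had 24.3 to 37.1 CPM in the 6 libraries. Of the 26 markers, 11 had at most 3 counts in each 240 h library, and 2 of those were at 0 throughout. Summed T-lineage, myeloid and red cell markers were at most 6.29, 10.5 and 2.04 CPM in any 240 h library. Summed pan-leukocyte markers were at 189.6, 197.8 and 176.2 CPM with DMSO and at 189.6, 186.7 and 194.4 CPM with WM-2474. That sum did not set DMSO replicates 1 and 2 apart, but low members add little to it. Its member Coro1a was at 2.97, 3.12 and 0.681 CPM with DMSO and at 0.108, 0.457 and 0.693 CPM with WM-2474. Ptprc, another member, was at 0.283, 0.543 and 0.040 CPM with DMSO and at 0.108, 0.381 and 0.231 CPM with WM-2474, with overlap. In bulk samples fewer cells of a type and less RNA per cell cannot be told apart. The part of these transcripts in the results below was not tested.

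**Figure D1:**
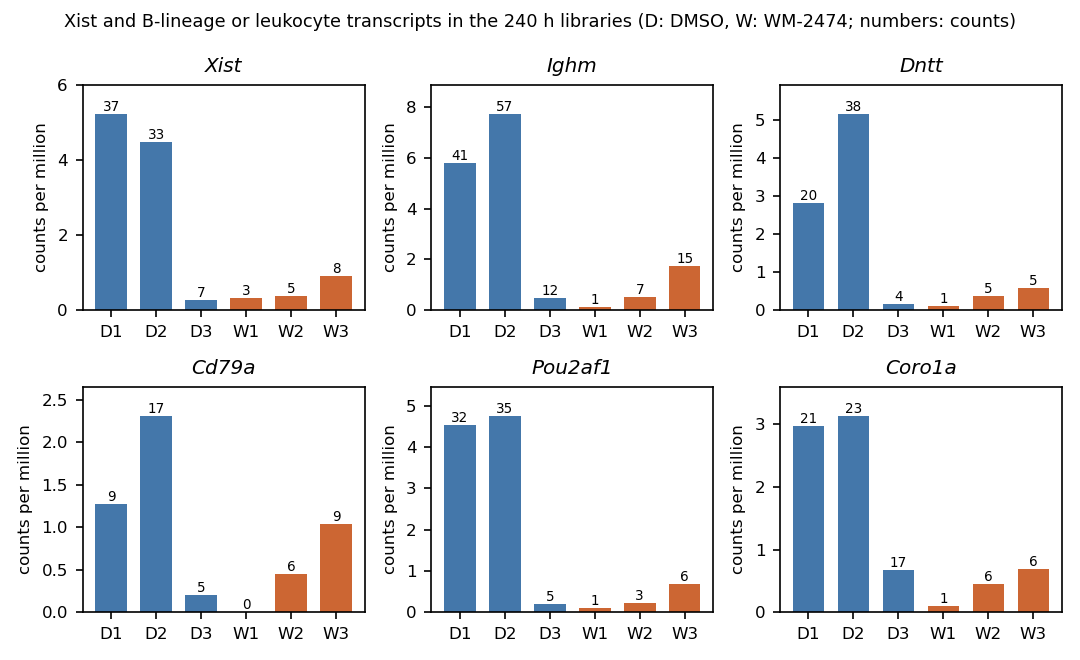
Level of Xist and of B-lineage or leukocyte transcripts in each 240 h library, in CPM on the vertical axes, with the raw count above each bar; D1 to D3 are DMSO replicates and W1 to W3 WM-2474 replicates. In the genes shown, DMSO replicates 1 and 2 stand above the other 4 libraries, with 37 and 33 counts of Xist against 3 to 8. The sum of pan-leukocyte markers, of which Coro1a is a small part, does not show this.

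Few genes passed the main test of WM-2474 against DMSO at 240 h, which took no pairs by replicate number. Of 13499 genes that passed the filter on low counts, 4 were higher with WM-2474 at an adjusted p of 0.05 in edgeR's quasi-likelihood test (0.0296% of those tested), and 0 were lower (0.0%). The 4 were Sorcs2, Ptma, Tmsb10 and the pseudogene Gm8623, with rises of 1.23 to 1.49-fold. At an unadjusted p of 0.05 the same test gave 644 genes higher (4.77%) and 455 lower (3.37%). The 3 WM-2474 libraries lay wholly above the 3 DMSO libraries for 1023 genes (7.58%) and wholly below for 907 (6.72%). Log2 fold changes were above 0 for 6837 genes (50.6%), with a median of 0.00. DESeq2 called 11 genes higher and 0 lower. With the replicate number as a block in the 6 libraries of 240 h alone, many more genes passed, in both directions, as given further below. The number of calls thus depended on which libraries were in the fit and on whether they were paired. Each of these changes alone added fewer calls. The sources do not settle the pairing.

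Of the 4 called genes, Ptma and Tmsb10 have a promoter in the RefSeq table (GRCm38.p6), and these are shown because both genes were called. Each window runs from 250 bases before to 50 after the annotated start, on the gene's strand. Ptma lies on the plus strand, and its window is chr1:86526307-86526606. Tmsb10 lies on the minus strand, with a window at chr6:72958699-72958998, and has 3 annotated starts in that table. Capitals mark the only motif found among 4 that were searched on both strands.
Ptma: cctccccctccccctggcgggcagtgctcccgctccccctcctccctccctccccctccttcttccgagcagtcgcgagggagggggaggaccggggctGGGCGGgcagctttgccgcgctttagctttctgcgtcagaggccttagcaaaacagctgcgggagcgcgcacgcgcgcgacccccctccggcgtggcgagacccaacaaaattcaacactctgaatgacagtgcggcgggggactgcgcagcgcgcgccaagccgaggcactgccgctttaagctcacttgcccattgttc
Tmsb10: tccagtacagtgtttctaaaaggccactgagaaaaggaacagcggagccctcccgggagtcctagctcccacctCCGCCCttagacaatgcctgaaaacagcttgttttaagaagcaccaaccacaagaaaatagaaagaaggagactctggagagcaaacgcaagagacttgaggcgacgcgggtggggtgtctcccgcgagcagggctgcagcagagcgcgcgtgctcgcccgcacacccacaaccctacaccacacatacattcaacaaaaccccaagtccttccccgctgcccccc
Each window held the GC box GGGCGG once, in Tmsb10 on the opposite strand, where it reads CCGCCC. That motif occurs in 35.9% of the 27025 promoters of the table. The others searched were the TATA box TATAAA, found in 14.2% of promoters, then CCAAT in 37.9% and the E-box CACGTG in 7.2%. GC content was 68.0% in the Ptma window and 56.7% in the Tmsb10 window, beside a median of 52.7% over all promoters. Such matches describe the letters of the window and are no evidence of binding.

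Ptma (gene identifier 19231, chr1:86526557-86530712, 1192 bases of exon) was at 147.1, 154.4 and 144.9 CPM in WM-2474 replicates 1, 2 and 3, and at 116.2, 117.1 and 121.6 CPM in DMSO replicates 1, 2 and 3. Every WM-2474 library lay above every DMSO library. The log2 fold change was 0.33 ± 0.06 (SE; 95% interval 0.21 to 0.44), an adjusted p of 0.017 in edgeR's test.

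Tmsb10 (19240, chr6:72957347-72958748, 943 bases of exon) was at 230.2, 203.8 and 200.0 CPM with WM-2474 and at 160.1, 172.9 and 167.3 CPM with DMSO. The groups did not overlap, and WM-2474 replicate 1 was the highest library. The log2 fold change was 0.34 ± 0.06 (95% interval 0.22 to 0.46), with an edgeR adjusted p of 0.0231.

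Sorcs2 (81840, chr5:36017180-36398197, 5722 bases of exon) was at 167.6, 160.2 and 155.5 CPM with WM-2474 and at 126.6, 130.6 and 133.8 CPM with DMSO. It was the only long gene of the 4, and its libraries did not overlap either. The log2 fold change was 0.30 ± 0.05 (95% interval 0.20 to 0.41), with an edgeR adjusted p of 0.017.

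Gm8623 (667422, chr8:47632276-47632779, 785 bases of exon) is annotated as a pseudogene and was at 25.6, 27.2 and 24.7 CPM with WM-2474 and at 16.0, 18.3 and 17.7 CPM with DMSO. Its log2 fold change was 0.57 ± 0.10 (95% interval 0.37 to 0.77), with an edgeR adjusted p of 0.017. Reads of such a copy are hard to place: 332 of its 406 words of 31 bases (81.8%) also occur in transcripts of other genes, 301 of them in Rps16, a protein of the small ribosomal subunit. Rps16 itself was at 35.3, 37.6 and 38.5 CPM with WM-2474 and 26.6, 29.9 and 24.0 CPM with DMSO, a log2 fold change of 0.50 ± 0.19 that did not pass (edgeR adjusted p = 0.542), but did in a fit of the 6 libraries of 240 h alone (edgeR adjusted p = 0.00793); it was chosen after its values were seen. Ptma and Tmsb10 share 31.1% and 32% of their words with other genes, mostly processed copies such as Gm4617 and Gm9844, and Sorcs2 shares 0. The value of Gm8623 is therefore uncertain as to its source, and those of Ptma and Tmsb10 less so.

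**Figure D2:**
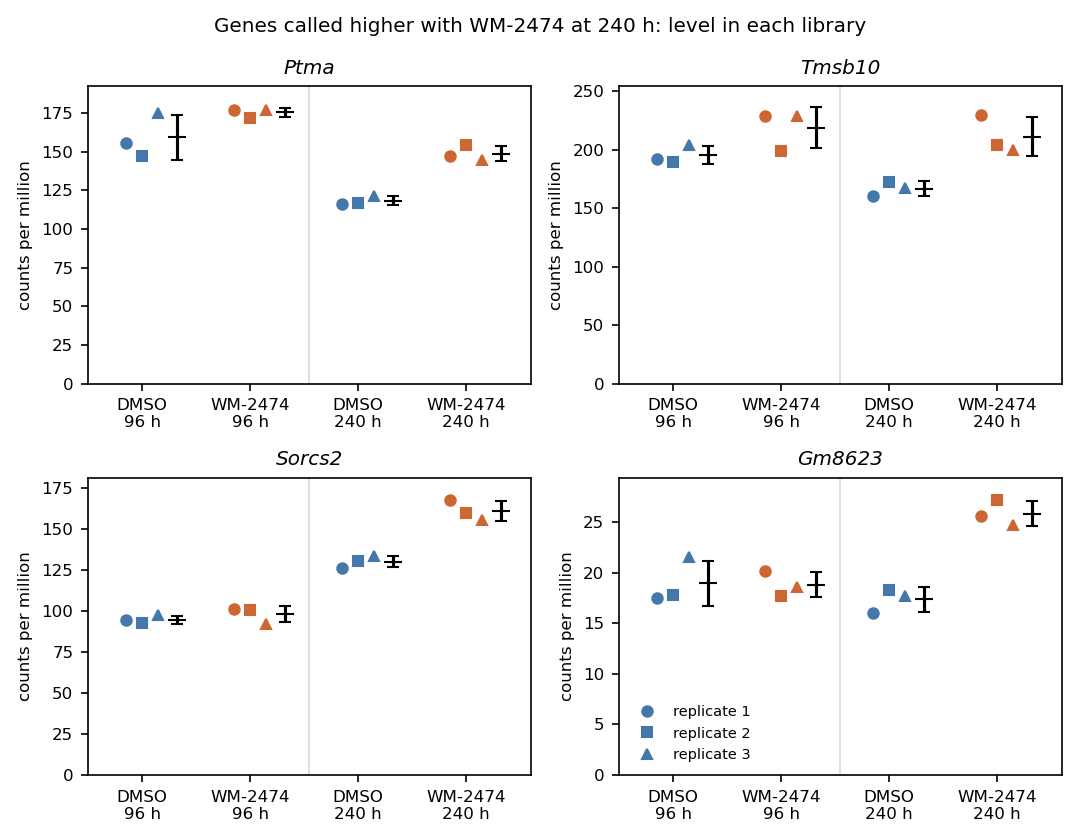
Level of the 4 genes called higher at 240 h in each of the 12 libraries, in CPM from 0 on the vertical axes; symbols mark replicates and the black bar with whiskers the mean and SD of 3 libraries. At 240 h the WM-2474 libraries lie above the DMSO libraries in all 4 panels, and at 96 h the groups overlap.

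At 96 h, with its own DMSO libraries, the same fit, which took no pairs, called 0 genes (0.0%). With the replicate number as a block in the 6 libraries of that time, 3 were called higher. The first fit gave 283 of 13499 at an unadjusted p of 0.05 (2.1%; 1.07% higher and 1.02% lower), beside 1099 at 240 h (8.14%). Its libraries did not overlap for 7.45% of genes, 3.62% higher and 3.83% lower. Ptma was at 177.2, 171.9 and 177.2 CPM with WM-2474 at 96 h and at 155.4, 147.3 and 175.1 CPM with DMSO. Those groups overlapped, with a log2 fold change of 0.14 ± 0.05. Tmsb10 was at 228.9, 199.1 and 229.3 CPM against 192.0, 189.7 and 204.2 CPM, also with overlap, and its log2 fold change was 0.17 ± 0.06. Sorcs2 was at 101.2, 100.6 and 92.5 CPM against 94.4, 92.7 and 97.4 CPM, a log2 fold change of 0.05 ± 0.05. Gm8623 was at 18.8 ± 1.22 CPM with WM-2474 (SD, n = 3) and 18.9 ± 2.25 CPM with DMSO (SD, n = 3).

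The change between exposures was tested directly as the difference of the 240 h and 96 h effects. No gene passed (edgeR, 0.0%), and 625 had an unadjusted p under 0.05 (4.63%). The difference was 0.25 ± 0.07 on the log2 scale for Sorcs2, 0.57 ± 0.13 for Gm8623, 0.19 ± 0.08 for Ptma and 0.17 ± 0.08 for Tmsb10, each with an adjusted p of 0.977. None of the 4 rises was thus shown to be particular to the long exposure.

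The rises did not rest on the shallow DMSO libraries in size. The WM-2474 mean of Sorcs2 was 1.27, 1.23 and 1.2 times the level in DMSO replicates 1, 2 and 3, and that of Ptma 1.28, 1.27 and 1.22 times. For Tmsb10 the ratios were 1.32, 1.22 and 1.26, and for Gm8623 1.62, 1.41 and 1.46. In the calls they did matter: 0 genes passed without DMSO replicate 1, without DMSO replicate 2 or without both, and 0 without WM-2474 replicate 1 or 2. Without both shallow libraries the log2 fold changes were 0.29 for Ptma, 0.34 for Tmsb10, 0.27 for Sorcs2 and 0.55 for Gm8623, with an adjusted p of 0.994 each, where the single DMSO library left is assumed to vary like the other groups. Without WM-2474 replicate 3, 5 genes were called higher.

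**Figure D3:**
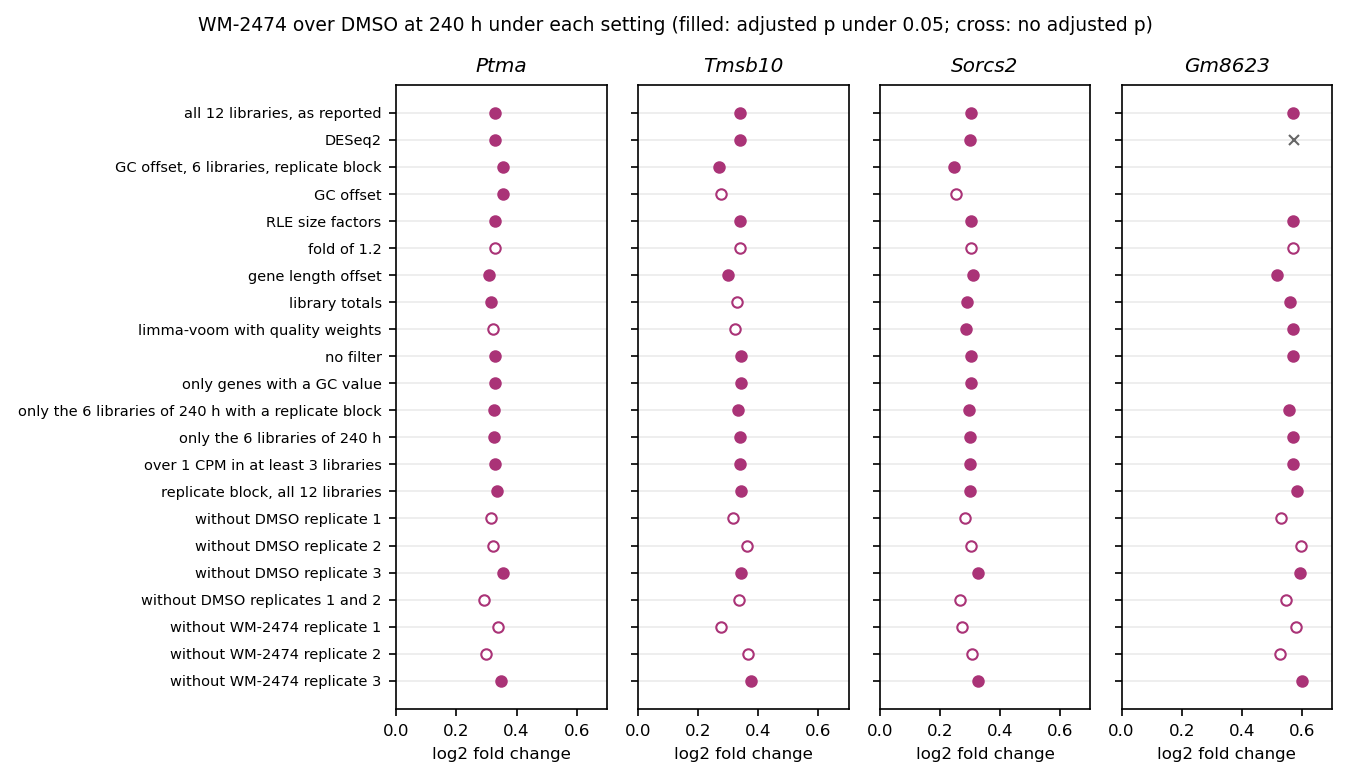
Log2 fold change of the 4 called genes at 240 h (horizontal axes) under each setting of the analysis (rows); filled circles have an adjusted p under 0.05, open circles do not, and a cross marks a setting with no adjusted p. Values stay between 0.25 and 0.38 for Ptma, Tmsb10 and Sorcs2 and between 0.52 and 0.60 for Gm8623. All 4 calls are lost when DMSO replicate 1 or 2 or WM-2474 replicate 1 or 2 is left out. They are also lost against a fold of 1.2. Some calls are lost in other settings, such as that of Tmsb10 with library totals or the GC offset.

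Without DMSO replicate 3, the deep library, 7 genes were called higher and 12 lower. The 12 were Pou2af1, Xist, Ighm, Lrmp, Coro1a, Ucp2, Ikzf1, Dntt, Lcp1, Arhgap30, Nup210 and Blnk, most of them genes of B cells or other leukocytes, and 6 of them were tested with all libraries. These names follow from that setting and were chosen after their values were seen. It leaves out the DMSO library with the lowest level of Xist, Ighm, Dntt and Coro1a, so that its calls are no separate support. Pou2af1, not tested with all libraries, had 32 and 35 counts in DMSO replicates 1 and 2 and 5 in DMSO replicate 3. It passed the filter through DMSO replicates 1 and 2 alone. Without DMSO replicate 3, Xist had a log2 fold change of -3.20 (adjusted p = 0.000246 in edgeR's test) and Ighm one of -3.16 (adjusted p = 0.000404 in edgeR's test). With all libraries those values were -2.22 ± 1.16 and -2.26 ± 1.14, and neither passed (edgeR adjusted p = 0.661 and 0.655). Without DMSO replicates 1 and 2 they turned to 0.86 and 0.63.

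Ucp2, a carrier of the inner mitochondrial membrane, led the genes that were lower without passing. It was at 10.4, 8.52 and 11.2 CPM with WM-2474 and at 17.7, 19.0 and 12.3 CPM with DMSO, so that DMSO replicates 1 and 2 were well above DMSO replicate 3. The log2 fold change was -0.64 ± 0.15 (edgeR adjusted p = 0.334), and the WM-2474 mean was 0.568, 0.529 and 0.817 times the level in DMSO replicates 1, 2 and 3. It was among the 12 genes above, and without DMSO replicate 3 its log2 fold change was -0.89 (edgeR adjusted p = 0.00397). Without DMSO replicates 1 and 2 it was -0.31 (edgeR adjusted p = 0.994). With all libraries and no filter on low counts Ucp2 passed at -0.64 (edgeR adjusted p = 0.00358).

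The higher genes next in order of p did not pass the main test. They were picked among genes whose WM-2474 libraries all lay above the DMSO libraries, which held for 7.58% of all genes tested. Gm6745 is a pseudogene that shares 265 of its 496 words of 31 bases with Rpl11, and was at 19.2, 19.3 and 19.5 CPM against 13.6, 13.2 and 13.1 CPM (edgeR adjusted p = 0.0637). Pfn1 encodes profilin 1, which like thymosin beta 10 binds actin monomers. It was at 732.8, 721.3 and 690.8 CPM against 615.4, 596.4 and 631.9 CPM, a log2 fold change of 0.22 ± 0.05 (edgeR adjusted p = 0.324). Cox6a1 and Atp5k, subunits of cytochrome c oxidase and of ATP synthase, had log2 fold changes of 0.30 ± 0.06 and 0.70 ± 0.17. Tmem258, a subunit of the oligosaccharyltransferase, and Rabac1, a Rab acceptor, had values of 0.43 ± 0.10 and 0.27 ± 0.06. In alternative settings Gm6745 passed in 4 of 18. Of 21 such settings, Cox6a1 passed in 4, Pfn1, Atp5k and Tmem258 in 3 each, and Rabac1 in 2.

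Among genes with lower values, Nasp, a chaperone of histone H1 and H3, was at 42.0, 43.5 and 46.9 CPM with WM-2474 against 49.9, 55.9 and 53.8 CPM with DMSO (edgeR adjusted p = 0.35). Anxa3, an annexin that binds membranes with calcium, was at 249.2, 277.6 and 263.7 CPM against 289.6, 307.1 and 299.5 CPM (edgeR adjusted p = 0.372). Snx2, a sorting nexin of the retromer, and Glcci1 had log2 fold changes of -0.24 ± 0.06 and -0.42 ± 0.12. Ctnnbl1, a factor tied to splicing, had -0.27 ± 0.07, and the low Anxa9 -1.22 ± 0.33. Rpl6l had -0.23 ± 0.06 and shares 84.4% of its words with other genes, chiefly Rpl6. These genes were picked among those whose WM-2474 libraries all lay below the DMSO libraries, so their lack of overlap is no separate result. Such a lack of overlap held for 6.72% of all genes tested in the lower direction, and for 14.3% in either direction.

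Relatives of the called genes gave mixed values. Ptms, parathymosin, is the other member of the prothymosin family; it was at 590.5, 495.9 and 529.6 CPM with WM-2474 and at 477.6, 456.2 and 503.8 CPM with DMSO. Its groups overlapped, and the log2 fold change was 0.17 ± 0.06 (edgeR adjusted p = 0.521). Tmsb4x, the most widely expressed beta thymosin, had 2, 1 and 1 counts with WM-2474 and 1, 3 and 7 with DMSO, and was not tested. Whether its reads were lost in mapping or counting was not tested, so these counts do not show that the cells lack it. Of 11 tested thymosins, profilins, cofilins and related actin-binding genes, Tmsb10 passed the test, Pfn1 was the only other with an unadjusted p under 0.05, and the median log2 fold change was -0.01. Of 4 tested VPS10 sorting receptors only Sorcs2 passed, and Sort1, sortilin, was at 24.3 to 30.1 CPM with WM-2474 and 23.9 to 29.2 CPM with DMSO. The 17 partners of prothymosin and histone chaperones had a median of -0.07, with 0 members at an unadjusted p of 0.05 higher and 5 lower, beside 4.77% and 3.37% of all genes, among them Nasp and the FACT subunit Ssrp1 (-0.12 ± 0.05).

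Many ribosomal protein genes had values above those with DMSO, and 0 members passed the adjusted test. Of 49 large subunit genes, 21 were higher and 0 lower at an unadjusted p of 0.05, beside 4.77% and 3.37% of all genes, and the median log2 fold change was 0.16. Of 34 small subunit genes, 13 were higher and 1 lower, with a median of 0.09, which was 0.06 without WM-2474 replicate 2. Rps15 was at 319.7, 322.7 and 314.4 CPM with WM-2474 and at 248.4, 290.0 and 277.7 CPM with DMSO, a log2 fold change of 0.23 ± 0.06. Rps29, at 1.22 to 2.97 CPM, had the highest value in this list, 0.95 ± 0.28, and Rps7 went the other way at -0.20 ± 0.07. Rpl18 had 0.32 ± 0.07.

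Within the WM-2474 group 1 library stood highest for the large subunit list. The median of its genes, relative to each gene's mean over the 6 libraries, was 0.191 on the log2 scale in WM-2474 replicate 2, against 0.006 and 0.034 in replicates 1 and 3, and -0.091, -0.057 and -0.054 in the DMSO libraries. All 3 WM-2474 libraries thus lay above all 3 DMSO libraries, by unequal amounts, and without WM-2474 replicate 2 the list median was 0.09. At 96 h the large subunit list had a median of 0.02, with 1 gene higher and 0 lower at an unadjusted p of 0.05. Of all genes 1.07% and 1.02% were so at 96 h. Of 22 translation factors at 240 h, 0 were higher and 1, Tpt1, was lower at that level, with a median of -0.05. This is near the shares of all genes at 240 h, 4.77% and 3.37%. Ribosomal protein genes are short, with a median exon length of 725 bases in the large subunit list against 2849 over all tested genes. Many have processed copies. With a correction for length the medians were 0.11 for the large and 0.03 for the small subunit list.

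The median log2 fold change was 0.13 for respiratory chain genes encoded in the nucleus, with 13 of 39 higher and 0 lower at an unadjusted p of 0.05 (4.77% and 3.37% of all genes), and 0 passed the adjusted test. Their median was 0.05 with the length correction and 0.08 without WM-2474 replicate 2. The 13 genes of the mitochondrial genome had a median of 0.11, and 7 were higher and 0 lower at that level. ATP6, an ATP synthase subunit, was at 1057, 1053 and 1025 CPM with WM-2474 and at 872.2, 872.3 and 996.0 CPM with DMSO, and ND4L, of complex I, had 0.25 ± 0.07. The shallow libraries moved this value. Mitochondrial transcripts made up 1.28% and 1.29% of counts in DMSO replicates 1 and 2, but 1.43% in DMSO replicate 3, beside 1.42%, 1.39% and 1.33% with WM-2474. Without DMSO replicates 1 and 2 the median of the 13 genes was 0.02, and without DMSO replicate 3 it was 0.17.

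Genes of cell division had values below those with DMSO, again with 0 members past the adjusted test. Of 32 mitosis genes 1 had a log2 fold change above 0, whereas 50.6% of all genes did. At an unadjusted p of 0.05, 10 were lower and 0 higher, beside 3.37% and 4.77% of all genes, and the median was -0.12. Top2a, which untangles DNA before division, was at 143.2, 149.9 and 159.6 CPM with WM-2474 and at 162.7, 176.2 and 169.3 CPM with DMSO (edgeR adjusted p = 0.444). Ect2, needed for cytokinesis, had -0.23 ± 0.09. Of 42 DNA replication and G1/S genes, 3 were lower and 1 higher at that level, with a median of -0.08. Rrm1 and Rrm2, the subunits of ribonucleotide reductase, had -0.17 ± 0.05 and -0.16 ± 0.06, and thymidine kinase Tk1 had 0.17 ± 0.08.

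WM-2474 replicate 1 was the lowest library of these lists. Relative to the mean of the 6 libraries the mitosis genes had a median of -0.166 there, against -0.032 and 0.014 in WM-2474 replicates 2 and 3, and 0.040 to 0.072 with DMSO. Without WM-2474 replicate 1 the list medians were -0.07 for mitosis and -0.04 for DNA replication. At 96 h they were -0.02 and -0.01. Of 7 CDK inhibitors, 1 was higher and 0 lower at an unadjusted p of 0.05, beside 4.77% and 3.37% of all genes, with a median of 0.10. The 1 was Cdkn1a, the p21 inhibitor, at 681.0, 641.9 and 639.9 CPM with WM-2474 and at 605.6, 624.5 and 599.5 CPM with DMSO. Cdkn2a, the locus of p16 and p19ARF whose induction marks senescence, was at 200.1, 179.9 and 178.3 CPM against 165.7, 170.6 and 172.2 CPM, with a log2 fold change of 0.13 ± 0.10 (edgeR adjusted p = 0.751). Targets of p53 were mixed, with 2 higher and 2 lower of 20, beside the same shares of all genes, and a median of 0.01. Phlda3 had 0.14 ± 0.06 and Perp -0.21 ± 0.08. Counts this small are not read as a result about either list.

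Over fibroblast matrix genes the median was 0.08 on the log2 scale, and 3 of 23 were higher and 0 lower at an unadjusted p of 0.05, beside 4.77% and 3.37% of all genes. Without WM-2474 replicate 1, or without DMSO replicates 1 and 2, that median was 0.05. Loxl1, which cross-links elastin, was at 713.9, 716.1 and 689.9 CPM with WM-2474 and at 608.1, 606.4 and 643.0 CPM with DMSO (edgeR adjusted p = 0.412). Col6a2 and Col1a2 had 0.17 ± 0.08 and 0.13 ± 0.06, and Col3a1 0.21 ± 0.10. Genes that handle foreign compounds had a median of -0.01 over 24 members, with 1 higher and 4 lower. Gstp1, a glutathione transferase, was at 44.2, 45.0 and 45.2 CPM against 39.2, 33.8 and 41.2 CPM, and the drug efflux pumps Abcb1b and Abcg2 had -0.28 ± 0.11 and -0.20 ± 0.07. None of these members passed the adjusted test.

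**Figure D4:**
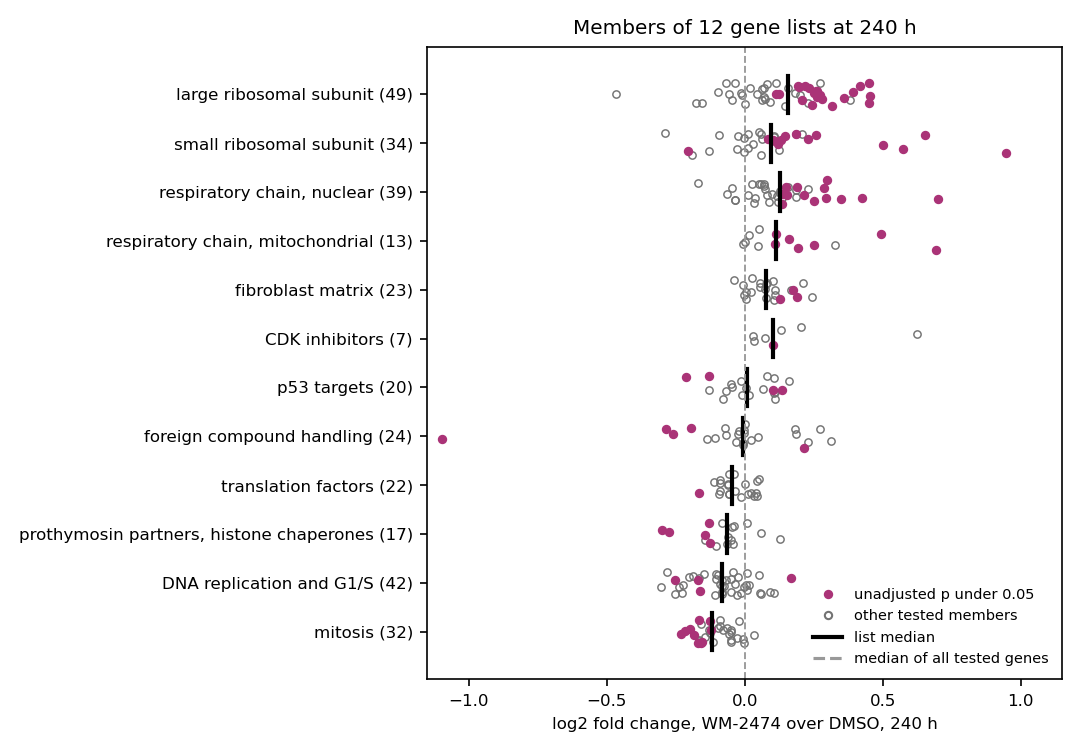
Log2 fold change at 240 h (horizontal axis) of each tested member of 12 gene lists, with the number of members in brackets; filled points have an unadjusted p under 0.05, black bars are list medians and the dashed line is the median of all 13499 genes. Ribosomal and respiratory chain lists lie to the right, with medians of 0.09 to 0.16, and mitosis and DNA replication lists to the left, with -0.12 and -0.08.

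Short genes were somewhat more often higher. The shortest of 5 equal classes by exon length, 30 to 1568 bases, had a median log2 fold change of 0.025, and the other classes lay between -0.007 and 0.004. In that class 258 of 2701 genes were higher and 75 lower at an unadjusted p of 0.05, which is 9.55% and 2.78% of its genes, beside 4.77% and 3.37% of all. Ptma, Tmsb10 and Gm8623 belong to it, and Sorcs2 to the longest class. Across genes Spearman's rho of the fold change with length was -0.077, a description, since genes share their libraries.

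Per library, the length dependence was not larger than the spread. The median of the shortest class minus that of the longest was 0.0544, 0.0314 and -0.0296 in WM-2474 replicates 1, 2 and 3, and -0.0397, -0.0117 and 0.0003 in the DMSO libraries. WM-2474 replicate 3 lay within the range of the DMSO libraries. The means differed by 0.0358, with p = 0.3 in a two-sided exact permutation test, for which 3 against 3 libraries allow no less than 0.1. Without DMSO replicate 1 the difference was 0.024, without WM-2474 replicate 1 it was 0.0188, and without WM-2474 replicate 3 it was 0.0636. At 96 h it was -0.03 (two-sided exact permutation p = 0.6), where DMSO replicate 3 reached 0.0717. A per-library correction for length left the same count of 4 called genes.

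Across genes the fold change was related to base composition more than to length; this measure was added after the data were seen. GC content of the longest annotated transcript was at hand for 12682 of the tested genes (93.9%), and its Spearman's rho with the fold change was 0.28 across genes, against 0.005 at 96 h. Of the GC-richest of 5 equal classes, 10.6% of genes were higher and 0.749% lower at an unadjusted p of 0.05, and of the GC-poorest 1.22% and 5.91%. Class medians were -0.037, -0.029, -0.008, 0.021 and 0.062 from the poorest to the richest.

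In the libraries, the GC-richest class minus the GC-poorest was 0.1351, 0.0146 and 0.0077 for WM-2474 replicates 1, 2 and 3, and -0.0365, -0.077 and -0.0405 for DMSO. The groups did not overlap, with WM-2474 replicate 1 far above the rest, and the means differed by 0.1038 (two-sided exact permutation p = 0.1, the smallest possible). Without WM-2474 replicate 1 the difference was 0.0617, and rho 0.164. At 96 h the values ranged from -0.1304 to 0.0746 and followed the replicate number rather than the treatment, with both replicate 1 libraries lowest.

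A per-library correction for GC content was run in the 12682 genes, where 3 genes were called without it and 1 with it. Ptma, whose transcript has 45.9% GC, was at 0.36 with an adjusted p of 0.008 in edgeR's test. Sorcs2, with 57.0% GC, went from 0.30 to 0.25 (edgeR adjusted p = 0.0935), and Tmsb10, with 58.7%, from 0.34 to 0.28 (edgeR adjusted p = 0.416). Gm8623 has no GC value and was not in that fit. The correction left the median at 0.15 for the large ribosomal list and moved that of mitosis, whose transcripts have a median of 46.2% GC, from -0.12 to -0.09. These medians kept their sign with the correction. The part of base composition in them was not tested.

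**Figure D5:**
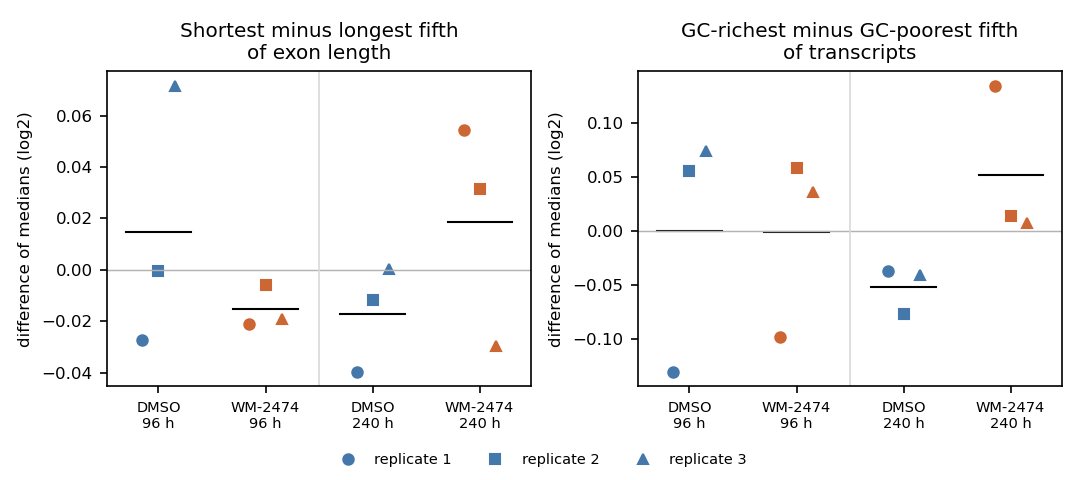
Difference of medians on the log2 scale (vertical axes), per library and relative to the mean of the libraries of that time, between the shortest and longest class of exon length (left) and between the GC-richest and GC-poorest class of transcripts (right); symbols mark replicates and bars group means. At 240 h the length values of the groups overlap, while the GC values do not, and WM-2474 replicate 1 is highest at 0.1351.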

How the data were processed

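RNA of 12 fibroblast cultures was made into libraries with a stranded mRNA kit, per the labels' protocols. The authors deposited raw counts per gene with each gene's exon length; per the submitters' processing notes they came from featureCounts on mm10. The aligner, annotation, versions, and strand and multiple-mapping settings are not given in the sources used here; antisense genes and near-identical copies are uncertain. Count columns were matched to samples by title, with 0 unmatched. Of 27179 entries, 874 without an identifier (0.547 to 0.648% of counts) were left out. Symbols came from RefSeq GRCm38.p6 for 25275 identifiers (96.1%).

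Counts were filtered with filterByExpr and scaled by TMM (0.943 to 0.967 at 240 h). A model with 4 group means over the 12 libraries was fitted in edgeR 4.0.16 (biological variation 5.22%), and quasi-likelihood p-values were adjusted by Benjamini-Hochberg over all 13499 genes. CPM are TMM-scaled; log2 CPM used a prior count of 2. The ± beside a log2 fold change is its SE. GC content came from GENCODE transcripts. The fit was tested on simulated data. Members and gene lists were chosen with earlier results of these data known; lists are described by counts and medians only. Named are all called genes, the 10 with the smallest p in each direction among those that do not overlap and reach 1 CPM, the 2 leading members of each list in each direction, and a set of preset genes; other names were chosen after their values were seen. Some of the genes that this rule names are not reported here. Tools were R 4.3.3, limma 3.58.1, DESeq2 1.42.0 and Python 3.11.15.

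Same-numbered samples were checked for pairing. Their deviations correlated by 0.0971, 0.114 and 0.0397 at 240 h, and by 0.301, 0.235 and 0.191 at 96 h. The submitters do not say what a number shares. The main fit took the numbers as pairs at neither time, and fits with the number as a block were run as alternatives. Alternatives covered scaling, filters, tools, a minimum fold, length and GC offsets, the samples in the fit, a replicate block, and leaving out libraries.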

Additional observations from a re-analysis of the deposited data

How the results depend on the processing

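The 4 called genes kept their direction in every setting that fitted them, and the ribosomal, respiratory, matrix, CDK inhibitor, chaperone, replication and mitosis medians kept theirs under the offsets, library totals and left-out libraries. Against 4 genes higher and 0 lower at 240 h, DESeq2 gave 11 higher, limma-voom with quality weights 2 (Gm8623 and Sorcs2), no filter 39 higher and 8 lower, a test against a fold of 1.2 gave 0, and the 6 libraries of 240 h alone 15 higher. The GC offset, added after seeing the data, gave 1 higher. Leaving out 1 library gave 0 to 7 higher and 0 to 12 lower, and leaving out DMSO replicates 1 and 2 together gave 0 and 0. With library totals Tmsb10 was lost (edgeR adjusted p = 0.0844). For the difference between exposures no filter gave 2 genes higher. Some list members that did not pass the main test passed in alternative settings. Of 21 settings, Rpl18 passed in 5, ATP6 in 4, ND4L in 3, and Loxl1 and Col3a1 in 2 each. Top2a, Rrm1 and Cdkn1a passed in 0.

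With the replicate number as a block, all 12 libraries gave 7 genes higher, and the 6 libraries of 240 h gave 79 higher and 12 lower. With the GC offset as well, the block gave 67 and 14. At 96 h the 6 libraries with the block gave 3 higher. All 6 libraries of 240 h correlated best with the library of their own number, a hint from the data and not the design.

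The median of the small ribosomal list was 0.028 with the length offset and 0.061 to 0.104 with 1 library left out (lowest without WM-2474 replicate 2), and that of nuclear respiratory genes 0.046 with the length offset. The mitochondrial list had 0.020 without DMSO replicates 1 and 2. CDK inhibitors had 0.066 with the GC offset and 0.078 to 0.143 with 1 library left out. Without DMSO replicates 1 and 2, Xist, Ighm and Dntt turned to 0.86, 0.63 and 1.10 on the log2 scale. The cause of these changes was not tested. Rare transcripts are limited by depth, with a floor of 0.41 CPM in the shallowest library.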

Other observations

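Stress and signalling genes showed small values at 240 h, with 0 members past the adjusted test of edgeR in the lists given here. Counts of members are at an unadjusted p of 0.05, where 4.77% of all genes were higher and 3.37% lower, and several are near those shares. Of 14 tested interferon-stimulated genes, 2 were higher and 1 lower; Irf7 was at 7.70, 2.89 and 4.51 CPM in WM-2474 replicates 1, 2 and 3 and at 3.11, 2.04 and 3.21 CPM with DMSO, so that WM-2474 replicate 1 stood highest. Of 21 immediate early genes 3 were higher and 0 lower, with a median of 0.01, and Nr4a1 had 0.20 ± 0.08. Heat shock genes had 2 of 14 higher and 0 lower, with Hspa1b at 0.17 ± 0.05, and genes of the integrated stress response 0 higher and 2 lower of 24, with Cebpg at -0.17 ± 0.06.

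Cholesterol synthesis genes had 0 higher and 1 lower of 26, Idi1 at -0.23 ± 0.09, and the proteasome list 1 higher and 1 lower of 26, with Psmb2 at 0.16 ± 0.06. Of 18 secreted factors linked to senescence 1 was higher, the plasminogen activator Plat at 0.13 ± 0.05. Among 15 acetyltransferases and KAT6 complex genes 0 were higher and 1 lower, Kat7 at -0.12 ± 0.05, and the list median was -0.03.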
